A study of Triticum aestivum with 10 samples.

Results

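The transcripts described here are those that were abundant in the youngest wheat grain and were at background level by 500 degree days (DD) after pollination. A degree day is 1 day at a mean temperature of 1 degree, summed over the days since pollination. Members were selected on measured values, as the probe sets at a log2 level of 8 or more on the 100 DD array of replicate 1 and under 4 on both 500 DD arrays, and 185 of the 61179 probe sets that are not Affymetrix controls met this rule. They made up 0.302% of all probe sets and 2.69% of the 6885 probe sets that reached 8 on the same 100 DD array. The values on these 3 arrays therefore describe how the members were chosen and carry no test. Results rest on the 6 arrays of 200, 250 and 300 DD, which the rule did not use.

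Plants of hexaploid bread wheat (*Triticum aestivum*, cultivar Récital) were vernalized, that is kept in the cold when young, and then grown in a greenhouse. No treatments were compared between the samples. Grain, as endosperm with embryo, was collected at 5 stages, given as 100, 200, 250, 300 and 500 DD. Each stage had 2 Affymetrix wheat arrays of total RNA, and values are log2 after GCRMA, a normalization that corrects the background binding of each probe, so a difference of 1 is a factor of 2 in signal. Replicate 1 carries labels of 130, 185, 230, 290 and 490 DD, which lie nearest to the sampling times of the later of the 2 harvest years in the methods, and replicate 2 carries labels of 100, 200, 250, 300 and 500 DD, nearest to those of the earlier harvest year. At every stage from 200 DD on, the array of replicate 2 is thus labelled 10 to 20 DD later than that of replicate 1, and harvest and sampling time cannot be told apart at a single stage. The sampling times in the methods differ somewhat from the labels, and at 300 DD the harvests lie closer together there than the labels give. Slopes and crossings below use the labels.

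The first part of wheat grain development is a phase of cell division. In it the endosperm forms from a syncytium that becomes cellular, while the maternal pericarp still makes up much of the young grain. Starch and storage proteins are then laid down in the filling phase, and the outer maternal layers are broken down and compressed. In bulk RNA, fewer cells of a type and less RNA per cell cannot be told apart, and GCRMA values are relative to the other transcripts of the same array.

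The labels of the stages were set against marker genes. Probe sets of starchy endosperm proteins (gliadins, a purothionin and amylase inhibitors, 15 probe sets) had a median of 3.37 on the 100 DD array of replicate 1, with 6 of the 15 at 4 or more and none over 7.06, and medians of 14.15 to 14.69 on the arrays from 200 DD on. Embryo markers (Em, WGA2 and Rab15, 9 probe sets) were under 4 on replicate 1 at 100 DD and on all arrays of 200 and 250 DD, had medians of 3.23 in replicate 2 and 4.48 in replicate 1 at 300 DD and reached 13.50 and 13.13 at 500 DD. Markers of green tissue (OEE1, OEE2 and petC, 5 probe sets) had a median of 11.17 on the 100 DD array of replicate 1 and medians of 6.90 in replicate 2 and 6.42 in replicate 1 at 500 DD. Of the 5, 4 were at 4 or more on each array up to 300 DD and 4 and 3 at 500 DD, so their level moved in the same direction as that of the members. Their part in the members' fall was not tested. The array labelled 100 DD replicate 2 went against its label. It correlated at r = 0.994 with the 500 DD array of replicate 2 and at r = 0.858 with the other 100 DD array over all probe sets, and its embryo markers had a median of 13.54. It was not used in any result on the members, and 174 of the 185 were under 4 on it.

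In each harvest, the median level of the members was lower at each later stage. The members had a median log2 value of 9.04 (quartiles 8.50 and 9.95) on the 100 DD array that selected them. At 200 DD, the median was 6.86 (4.34 and 8.34) in replicate 2 and 7.93 (5.93 and 9.46) in replicate 1. At 250 DD it was 5.74 (3.59 and 7.35) in replicate 2 and 6.77 (4.73 and 8.05) in replicate 1. Both medians were thus more than 2 log2 units under the starting level by 250 DD. At 300 DD the median was 4.45 (2.98 and 5.96) in replicate 2 and 5.17 (3.69 and 6.69) in replicate 1, and at 500 DD it was 2.86 and 2.99, under 4 by the rule. Sorted by their labels from 185 to 300 DD, the 6 arrays gave a lower median at each step, but the 2 harvests alternate in that order and the members did not move alike at each step. On the 3 steps that end on an array of replicate 2, 153 or 154 of the 185 members were lower, beside 65.9% to 75.7% of all probe sets. On the steps that end on an array of replicate 1, 91 of 185 were lower at 230 than at 200 DD, beside 29.1% of all probe sets, with a median difference of 0.0021. From 250 to 290 DD, 117 were lower, beside 24.5% of all probe sets, with a median difference of -0.24. The 6700 other probe sets that reached 8 on the same 100 DD array had medians between 8.94 and 9.21 on these 6 arrays.

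**Figure D1:**
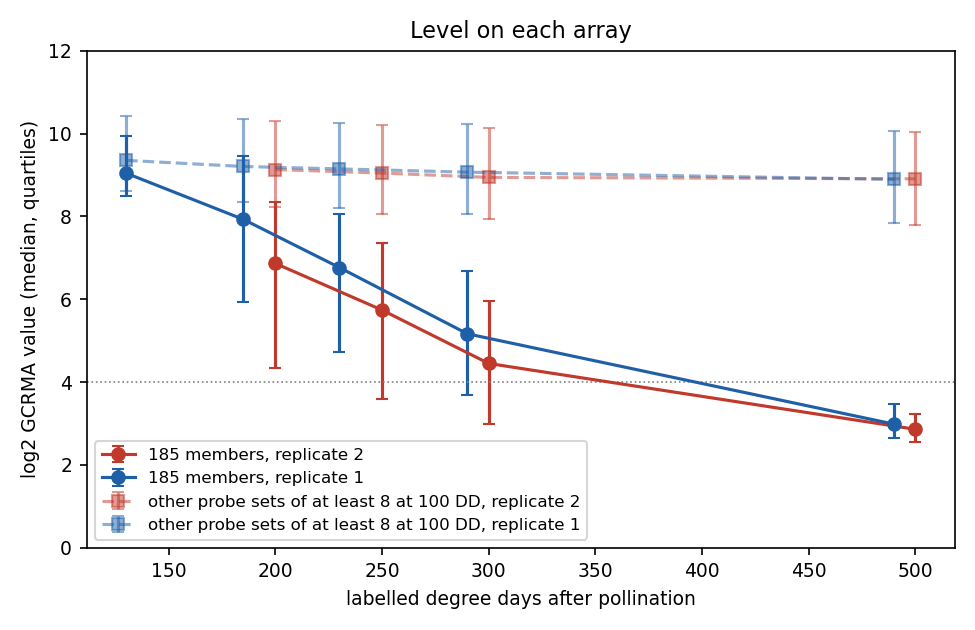
Median log2 GCRMA value with quartiles on each array against the labelled degree days, for the 185 members (solid lines) and the 6700 other probe sets of at least 8 on the 100 DD array of replicate 1 (dashed lines), replicate 2 in red and replicate 1 in blue. The members' median lies at 4.45 and 5.17 at 300 DD, where the other probe sets have medians of 8.94 and 9.07, and the dotted line marks the value of 4 used by the rule.

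The members went under 4 at very different times. At 200 DD, 42 were under 4 in replicate 2 and 11 in replicate 1, and 11 were so on both arrays. At 250 DD, 56 were under 4 in replicate 2 and 37 in replicate 1, with 35 on both arrays. At 300 DD, 79 were under 4 in replicate 2 and 58 in replicate 1, with 53 on both arrays. Of the rest, 101 members were still at 4 or more on both 300 DD arrays, and 11 were at 8 or more on both. Only 10 members were under 4 on all 6 arrays from 200 to 300 DD, with values of 8.05 to 10.1 on the 100 DD array, and 100 members were at 4 or more on all 6.

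**Figure D2:**
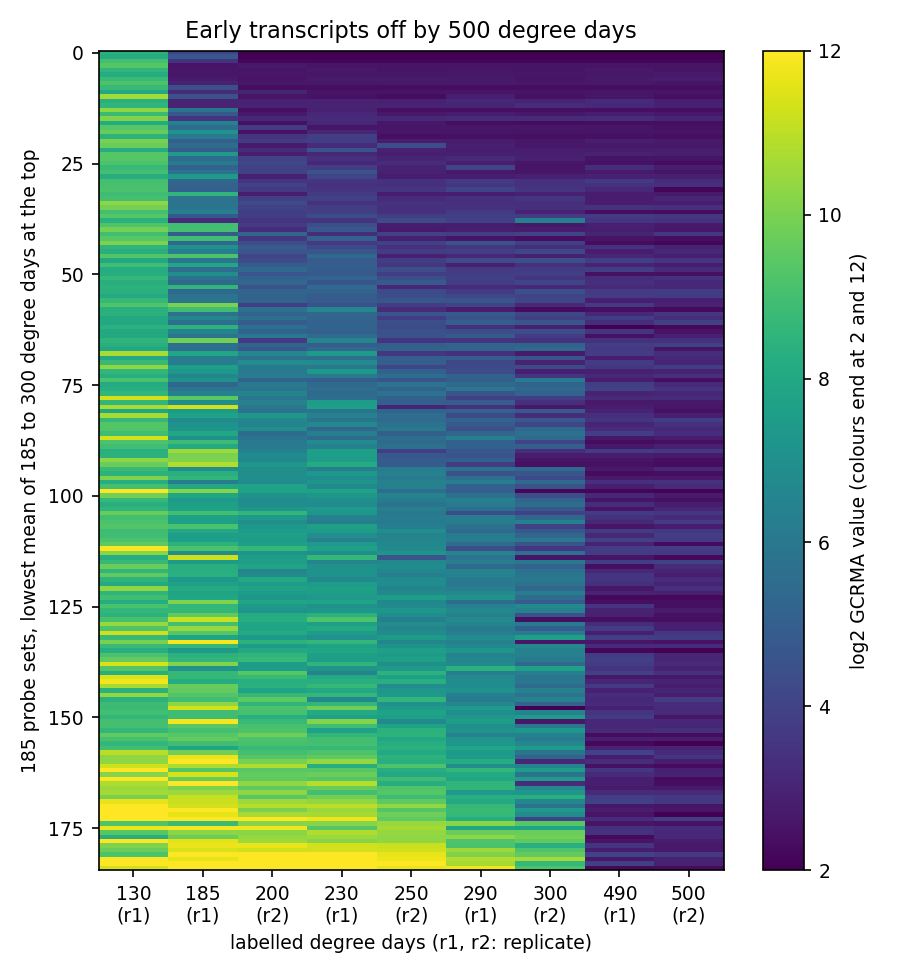
Log2 GCRMA values of the 185 members (rows, sorted by their mean over the 6 arrays of 200 to 300 DD, the lowest at the top) on the 9 arrays used (columns, by labelled degree days with the replicate beneath). The first column and the last pair of columns chose the members, and between them the colours darken at different arrays, from 10 probe sets under 4 on all 6 arrays to 11 at 8 or more on both 300 DD arrays.

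To place each fall in time, a midpoint was taken between a member's log2 value on the 100 DD array of replicate 1 and its mean over both 500 DD arrays. The midpoint stage is the first of 200, 250 and 300 DD with a value under that midpoint. Both replicates were set against this same midpoint, since replicate 2 had no 100 DD value in use. In replicate 2, 73 members (39.5%) were under the midpoint at 200 DD, 32 fell under it at 250 DD, 46 at 300 DD, and 34 (18.4%) were still over it at 300 DD. In replicate 1, 44 members (23.8%) were under it at 200 DD, 35 fell under it at 250 DD, 42 at 300 DD, and 64 (34.6%) were still over it at 300 DD. The members thus spread over all 4 classes in both harvests with this midpoint. The spread depended on where the limit was set, since with a limit 1 log2 unit under the 100 DD value 145 of the 185 members in replicate 2 and 107 in replicate 1 were under it at 200 DD, and 5 and 7 were still over it at 300 DD. Once under the midpoint, a member generally stayed there, since 3 members in replicate 2 and 0 in replicate 1 were over it again at a later stage.

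The 2 harvests gave the same stage for 99 members, an earlier stage in replicate 2 for 83 and a later stage in replicate 2 for 3. The high end of every midpoint is a replicate 1 array, so replicate 2 was measured against the level of the other harvest. The part of this in the difference was not tested. Of the 83, 77 moved by a single stage and 6 by more. Members under the midpoint by 200 DD in both harvests numbered 42, and those over it at 300 DD in both numbered 34. The largest groups that moved were 28 members under the midpoint at 300 DD in replicate 2 but not in replicate 1, and 27 members under it at 200 DD in replicate 2 and at 250 DD in replicate 1. By straight lines between arrays, the 46 members that crossed between 200 and 300 DD in both harvests did so at a median of 237.01 DD in replicate 2 and 260.77 DD in replicate 1. The difference for each of these members, in labelled degree days, had a median of -16.59 (quartiles -30.88 and -3.89) and was negative for 37 of the 46. These values are rough, since each rests on a pair of arrays.

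**Figure D3:**
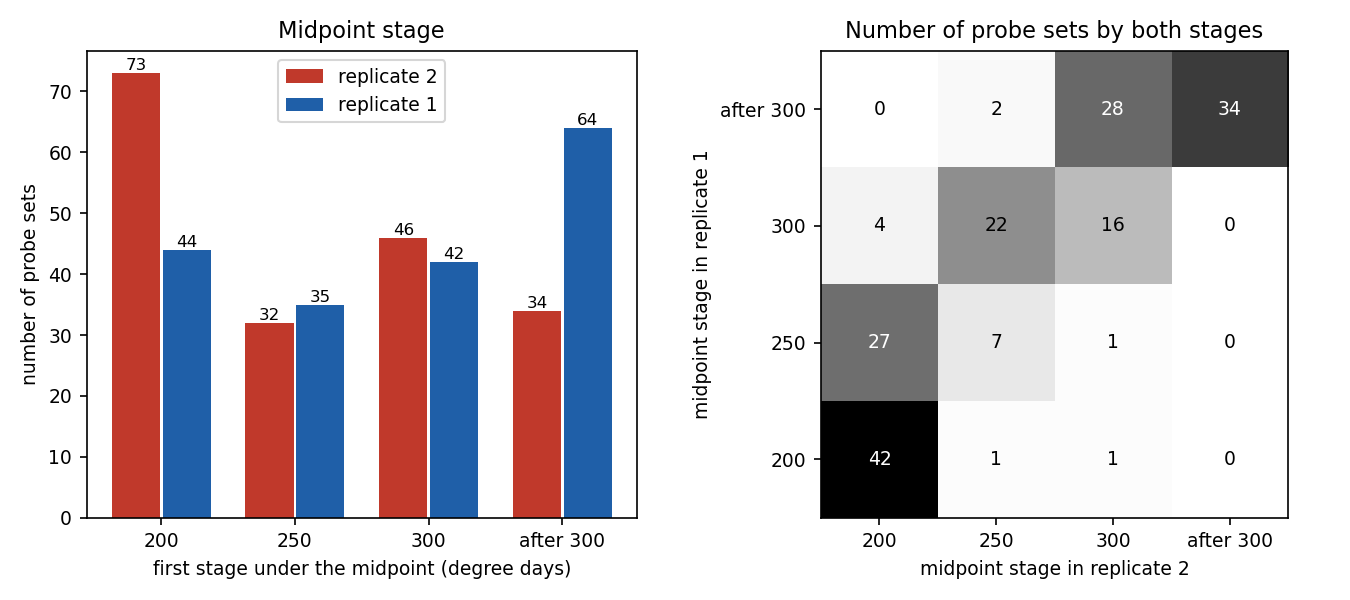
Left, number of members by the first stage under their midpoint, with replicate 2 (red) to the left of replicate 1 (blue). Right, the same members by their stage in replicate 2 (columns) and in replicate 1 (rows), where 99 lie on the diagonal, 83 have an earlier stage in replicate 2 and 3 a later one.

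The early and late groups had close medians at 100 DD. The 42 members under the midpoint by 200 DD in both harvests had a median of 8.80 on the 100 DD array (8.02 to 10.61). Their medians were 3.72 in replicate 2 and 5.12 in replicate 1 at 200 DD, and 3.07 and 3.42 at 250 DD, so most of their fall lay before 250 DD. The 34 members that stayed over the midpoint through 300 DD had a median of 9.03 on the 100 DD array (8.13 to 12.92). Their medians at 200 DD were 9.18 in replicate 2 and 8.93 in replicate 1, at 250 DD 8.40 and 8.35, and at 300 DD 6.97 and 7.23. The medians of the harvests were close, but a member entered this group only if over the midpoint in both. Single members differed more, in either direction. Ta.837.1.S1_at had 9.19 in replicate 2 and 11.77 in replicate 1 at 300 DD, and Ta.28496.1.A1_at 8.46 and 6.49 at 250 DD. These groups were formed from the same values and are descriptions without a test.

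Not every member was highest at 100 DD. Taking stage means, and the single selecting array at 100 DD, 153 members were highest at 100 DD, 29 at 200 DD, 3 at 250 DD and 0 at 300 DD. On the 200 DD arrays, 17 members in replicate 2 and 40 in replicate 1 were above their 100 DD value, 14 of them on both arrays. The 100 DD level of each member rests on a single array and has no replicate.

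The question of the stage comparisons was how much the members fell between 200 and 300 DD, within the part of the time course that the rule did not use. Since the rule fixed a high start and a low end, a fall somewhere between them was set, and what these arrays add is its timing and size. Over all 185 members, the mean of the 300 DD arrays minus that of the 200 DD arrays had a median of -1.95 on the log2 scale, against -0.09 for the 22111 probe sets tested and -0.23 for the 6700 others of at least 8 at 100 DD. The mean was lower at 300 DD for 175 members, beside 57.7% of the probe sets tested, and higher for 10, by at most 1.81. The fall showed in each harvest for 156 members, beside 40.2% of the probe sets tested. Both 300 DD arrays lay under both 200 DD arrays for 146 of 185, which held for 29.2% of the probe sets tested. The median difference was -1.03 between 250 and 200 DD and -0.93 between 300 and 250 DD, so the decline was spread over both intervals.

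The tests used limma across all probe sets with a mean of at least 4 over the 6 arrays, with stage means and Benjamini-Hochberg adjustment, and 149 of the 185 members passed this filter. Between 300 and 200 DD, 2 members were called lower at an adjusted p under 0.05 and 0 higher, beside 5 probe sets called lower among the 22111 tested (0.0226%). Since the replicate number follows the harvest, and arrays of the same number deviated together from their stage means, the fit was also made with the number as a replicate block. It called 78 members lower and 0 higher, beside 434 of all probe sets lower (1.96%), so the count depended on whether the difference between harvests was taken out. Without each array in turn, 0 members were called with stage means alone, and with the block 65 were called without the 200 DD array of replicate 2, beside 249 of all probe sets lower (1.13%), 7 without the 300 DD array of replicate 2, beside 11 (0.0498%), and 0 without any of the other 4 arrays. At an unadjusted p under 0.05 there were 115 members and 3763 probe sets in both directions.

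The 78 members called with the block fell by a median of 2.94 on the log2 scale between 200 and 300 DD, with differences from -6.51 to -1.34. In replicate 2, 5 of them had their midpoint stage at 200 DD, 21 at 250 DD and 39 at 300 DD, and 13 were still over it at 300 DD. In replicate 1 these were 4, 7 and 30, and the largest class was the 37 still over it at 300 DD. The 71 other members that entered the fit had a median difference of -1.38, 66 of them below 0. The 36 members that did not enter the fit were all under their midpoint at 200 DD in replicate 2, and the test says nothing about them. Of the members in the fit, 5 of the 78 called and 32 of the 71 others had that same stage in replicate 2. The test therefore covers the early falls only in part.

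Neither of the adjacent intervals gave a call. Between 250 and 200 DD, limma called 0 members, with 0% of all probe sets called lower, and 33 members and 1049 probe sets had an unadjusted p under 0.05. Between 300 and 250 DD, limma again called 0 members, with 0% of all probe sets called lower, and 52 members and 1088 probe sets had an unadjusted p under 0.05. The replicate block called 0 members in either interval. The methods' 2-group test with a variance common to all probe sets and Bonferroni adjustment called 5 members lower in the first interval, beside 14 of all probe sets (0.0633%), and 12 in the second, beside 28 (0.127%). After Benjamini-Hochberg adjustment it called 21 members in the first interval, beside 51 of all probe sets (0.231%), and 34 in the second, beside 87 (0.393%). With a variance for each probe set it called 0 members in both.

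Because the labelled degree days differ between the arrays of a stage, a slope on the labelled values was fitted as well, after the counts above were seen. Over all 185 members the slope had a median of -2.03 log2 units per 100 DD (quartiles -3.09 and -1.26), against -0.10 for the probe sets tested. It was negative for 176 members (95.1%), against 59.0% of the probe sets tested. Limma called the slope for 65 members, all negative, beside 535 probe sets called negative among all tested (2.42%). Without each array in turn the count of members was 1 to 63, the highest being without the 200 DD array of replicate 2 (1.54% of all probe sets negative). It was 1 without the 300 DD array of replicate 1 (0.00451%), 2 without the 300 DD array of replicate 2 (0.00906%), 10 without the 200 DD array of replicate 1 (0.0725%) and 33 without the 250 DD array of replicate 2 (0.664%).

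The 2 unannotated members called with stage means alone are named for that reason, after their values were seen. Ta.24730.2.S1_x_at had 9.78 in replicate 2 and 9.38 in replicate 1 at 200 DD, 8.45 and 8.57 at 250 DD, and 6.36 and 6.47 at 300 DD. The stages did not overlap, and 300 minus 200 DD was -3.16 ± 0.22 (SE, limma adjusted p = 0.037, and 0.0145 with the block). Ta.3249.1.S1_at had 10.32 in replicate 2 and 10.53 in replicate 1 at 200 DD, 9.35 and 8.997 at 250 DD, and 7.22 and 7.40 at 300 DD. Its stages did not overlap either, and the difference was -3.12 ± 0.22 (SE, limma adjusted p = 0.037, and 0.0152 with the block). Both probe sets were nearly equal in the 2 harvests and still over their midpoint at 300 DD, so on the log2 scale the middle of their fall lay between 300 and 500 DD. In signal, where 1 log2 unit is a factor of 2, most was lost before. At 300 DD the first read 6.36 and 6.47 against 9.58 at 100 DD, and the second 7.22 and 7.40 against 10.65.

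Only 6 members, of 5 genes, are in the gene table of the array, which covers 1273 of the 61179 probe sets. This was 0.471% of the annotated probe sets, against 0.299% of the others (179 of 59906). LOC542877, LOC543137 and LOC543355 have a locus number and no other name there, so no role is given for them.

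LOC780595, listed as GLU1A or TaGlu1a, encodes a beta-glucosidase that releases benzoxazinoids, defence compounds of young cereal tissue, from their stored glucosides. Its probe set Ta.4601.2.S1_at had 8.18 on the 100 DD array. It had 2.60 in replicate 2 and 2.61 in replicate 1 at 200 DD, 2.61 and 2.62 at 250 DD, 2.61 and 2.64 at 300 DD and 2.67 and 2.64 at 500 DD. All arrays after 100 DD lay within 0.1 of each other, under the median of all probe sets (2.94 to 3.09), so its high value rests on 1 array. It did not pass the filter and was not tested.

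LOC606328, listed as Prx1 or TaPrx1, had a lower mean at each later stage. Ta.6572.1.S1_a_at had 8.93 on the 100 DD array. It had 7.64 in replicate 2 and 7.60 in replicate 1 at 200 DD, 6.47 and 6.91 at 250 DD, 5.34 and 6.15 at 300 DD, and 3.86 and 3.13 at 500 DD. The 300 DD arrays did not overlap the 200 DD arrays, with means of 5.75 ± 0.57 and 7.62 ± 0.03 (SD, n = 2 each), and the difference of -1.87 ± 0.33 (SE) missed the threshold with stage means (limma adjusted p = 0.114) and passed it with the block (0.0401). Its midpoint stage was at 300 DD in both harvests. The gene has 3 other probe sets, which the rule did not take. Ta.6572.1.S1_at had 10.37 at 100 DD and ended at 5.17 in replicate 2 and 3.63 in replicate 1, Ta.6572.2.S1_at had 8.62 and ended at 4.05 and 3.62, and Ta.6572.3.S1_at was at 2.07 to 2.10 throughout. The first pair of these also had lower means at each later stage up to 300 DD, and their 500 DD arrays of replicate 2 lay above the value of 4.

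LOC542877 was the annotated member with the largest difference between harvests. Ta.2786.1.S1_at had 10.79 on the 100 DD array. It had 10.33 in replicate 2 and 12.56 in replicate 1 at 200 DD, 8.22 and 10.88 at 250 DD, 3.25 and 8.54 at 300 DD, and 2.37 and 2.86 at 500 DD. It was thus near background at 300 DD in replicate 2, while in replicate 1 it was still over its midpoint of 6.70, and its midpoint stage was at 300 DD in replicate 2 and after 300 DD in replicate 1. The difference between 300 and 200 DD, -5.55 ± 1.95 (SE), missed the threshold with stage means (limma adjusted p = 0.261) and passed it with the block (0.0399). The harvest difference over the 3 stages was -3.39 ± 0.63 (SE, limma adjusted p = 0.113).

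LOC543355 was measured by 2 members of the same cluster. Ta.581.2.S1_a_at had 9.60 on the 100 DD array, 8.68 in replicate 2 and 8.59 in replicate 1 at 200 DD, 7.68 and 7.57 at 250 DD, 6.09 and 6.59 at 300 DD, and 3.06 and 3.89 at 500 DD. Ta.581.1.S1_at had 8.50 on the 100 DD array, 8.09 in replicate 2 and 7.33 in replicate 1 at 200 DD, 6.87 and 6.75 at 250 DD, 6.02 and 6.13 at 300 DD, and 3.23 and 3.49 at 500 DD. In both probe sets each stage lay under the one before without overlap. The difference between 300 and 200 DD was -2.29 ± 0.24 (SE) for Ta.581.2.S1_a_at, with a limma adjusted p of 0.0702 and 0.0247 with the block. It was -1.63 ± 0.30 (SE) for Ta.581.1.S1_at, with an adjusted p of 0.117 and 0.0536 with the block.

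LOC543137 was among the slow members. Ta.5567.1.S1_at had 8.79 on the 100 DD array, 7.54 in replicate 2 and 8.65 in replicate 1 at 200 DD, 7.15 and 7.81 at 250 DD, 6.71 and 6.68 at 300 DD, and 3.17 and 3.20 at 500 DD. Its 300 DD arrays nearly coincided and were still over the midpoint of 5.99, and the difference of -1.41 ± 0.44 (SE) was called neither with stage means (limma adjusted p = 0.229) nor with the block (0.0916). A further probe set of this gene, TaAffx.58852.1.S1_at, was at 2.41 to 2.44 on all arrays.

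**Figure D4:**
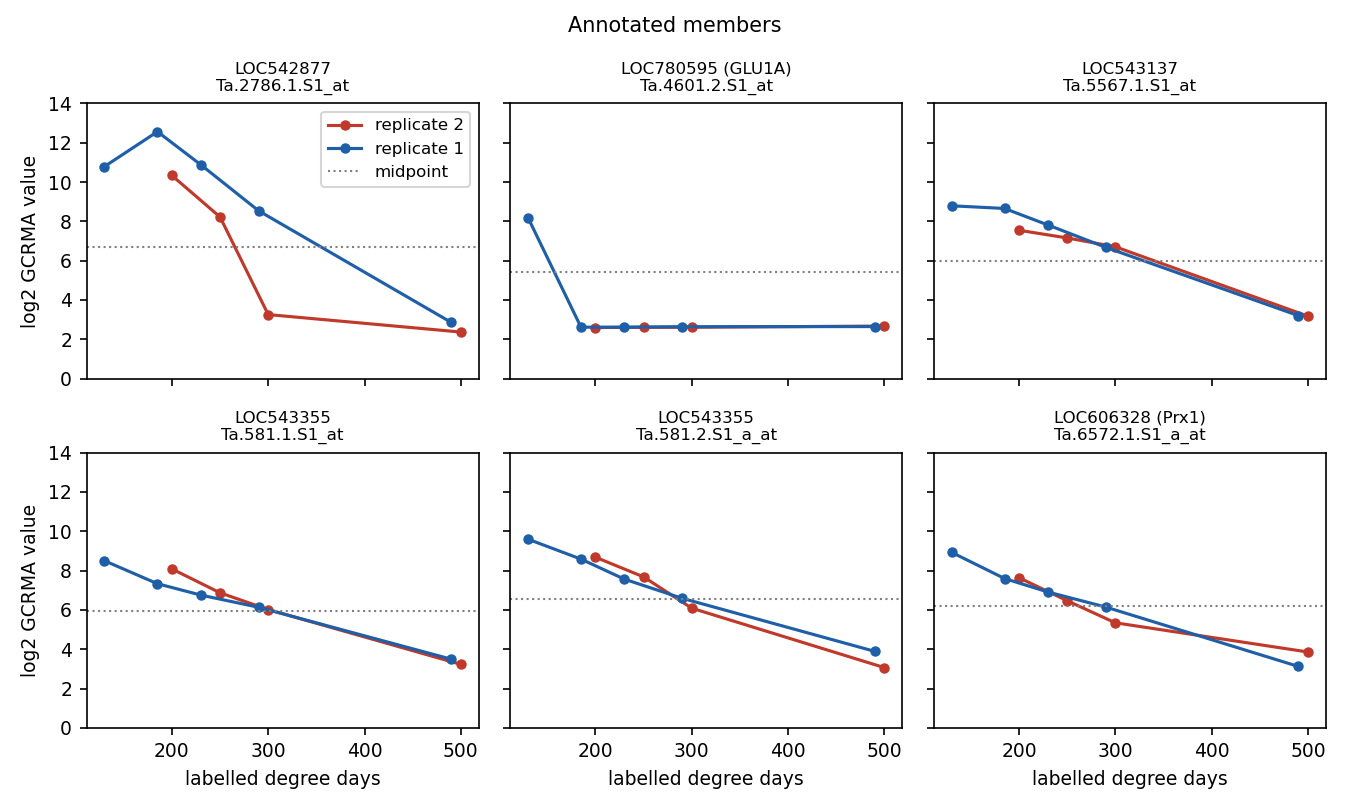
Log2 GCRMA value against labelled degree days for the 6 annotated members, replicate 2 in red and replicate 1 in blue, with the dotted line at the midpoint of each. LOC780595 is at 2.60 to 2.67 after 100 DD, LOC542877 differs between harvests most at 300 DD (3.25 in replicate 2 and 8.54 in replicate 1), and the other 4 probe sets have lower stage means at each later stage.

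Among the unannotated members, those with the lowest mean at 200 DD and the highest mean at 300 DD mark the ends of the range. Ta.30846.1.S1_at had 8.57 on the 100 DD array, and 2.56 in replicate 2 and 2.59 in replicate 1 at 200 DD, with all later arrays under 2.7, so like LOC780595 it was high on a single array. At the other end, Ta.8258.3.S1_at had 12.45 on the 100 DD array, 11.93 in replicate 2 and 11.64 in replicate 1 at 200 DD, 11.74 and 12.25 at 250 DD, and 10.63 and 10.85 at 300 DD. It then lay at 2.92 and 2.65 at 500 DD, so on the log2 scale most of its drop came after 300 DD. At 300 DD it already lay more than 1 log2 unit under its 100 DD value. Ta.837.1.S1_at had 11.32 on the 100 DD array, 12.92 in replicate 2 and 14.09 in replicate 1 at 200 DD, 11.65 and 12.88 at 250 DD, 9.19 and 11.77 at 300 DD and 2.28 and 2.23 at 500 DD. It was higher at 200 DD than at 100 DD, and its difference between 300 and 200 DD of -3.03 was called with the block (limma adjusted p = 0.0372) but not with stage means (0.236).

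The harvests were compared at each stage, since the arrays of replicate 2 carried the later labels. At 200 DD, 154 members (83.2%) were lower in replicate 2 than in replicate 1, against 53.1% of the probe sets tested. The median difference was -0.85 (quartiles -1.99 and -0.15), against -0.03 for the probe sets tested. At 250 DD, 154 members (83.2%) were lower in replicate 2, against 65.2%, with a median of -0.63 against -0.15. At 300 DD, 153 members (82.7%) were lower in replicate 2, against 61.8%, with a median of -0.39 against -0.11. The members were lower in replicate 2 at all 3 stages in 116 cases (62.7%), against 31.4% of the probe sets tested and 34.2% of the 6700 others of at least 8 at 100 DD, and at 0 stages in 6 cases. At 200 DD, 24 members (13.0%) were more than 3 log2 units lower in replicate 2, against 0.167% of the probe sets tested, and 0 members were more than 3 higher.

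In the fit with stage means, limma called 0 members for the difference between replicate 2 and replicate 1, with 0% of all probe sets called lower, and 71 members and 4288 probe sets had an unadjusted p under 0.05. With the labelled degree days as a slope in place of stages, 1 member was called lower in replicate 2, beside 9 of all probe sets lower (0.0407%) and 17 higher. Over all 185 members the difference at equal labelled degree days had a median of -0.46 (quartiles -0.91 and -0.08), against -0.09 for the probe sets tested. It was negative for 148 of 185 (80.0%), against 61.5% of the probe sets tested and 62.0% of the 6700 others of at least 8 at 100 DD. Part of the gap between harvests thus remained at equal labels, on the assumption of a straight line. The members were picked with an array of replicate 1 at the high end, and the 100 DD array of replicate 2 was not used, which also bears on this comparison. The spike-in controls of the arrays, bacterial RNAs added to the sample (42 probe sets), had mean log2 values of 8.8 to 9.5 on the replicate 2 arrays of these stages and 4.28 to 7.66 on the replicate 1 arrays, and their part in the harvest difference was not tested.

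**Figure D5:**
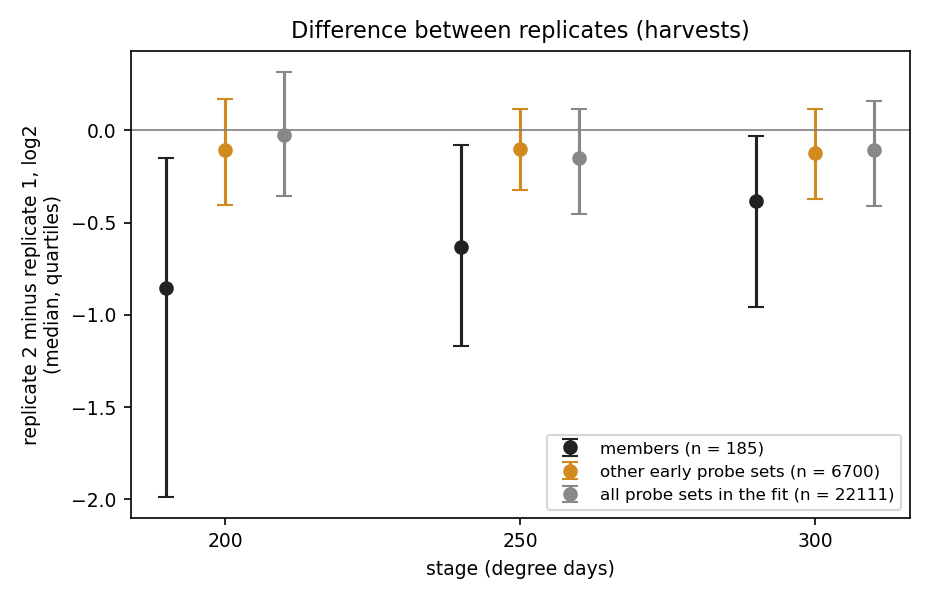
Difference of replicate 2 minus replicate 1 on the log2 scale at 200, 250 and 300 DD, as the median with quartiles, for the 185 members (black), the 6700 other probe sets of at least 8 at 100 DD (orange) and the 22111 probe sets tested (grey). The members' medians are -0.85, -0.63 and -0.39, and those of the other 2 sets lie between -0.15 and -0.03.

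At 300 DD, 8 members were more than 3 log2 units lower in replicate 2 than in replicate 1 and 0 were more than 3 higher. A difference of that size held for 4.32% of the members and 0.095% of the probe sets tested. On the same arrays 7 members were already under 4 in replicate 2 while at 6 or more in replicate 1, LOC542877 among them, and 1 member showed the reverse. The share of all probe sets with this pattern was not counted, so these counts only describe the members.

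The probe-set names carry a cluster number, taken here as a guide to which probe sets share a transcript group. In the annotation table, 208 of 228 clusters with more than 1 annotated probe set had a single gene. The 185 members fell into 162 clusters, of which 18 held more than 1 member and together 41 members. Of the 28 pairs of members in a shared cluster, 19 had the same midpoint stage in replicate 2 and 21 in replicate 1, while 27.7% of all pairs of members did in replicate 2 and 26.0% in replicate 1. Probe sets of a cluster can overlap in sequence and are not independent measurements. The clusters also held 171 probe sets that were not members, 97 of them at 8 or more on the 100 DD array and 36 under 4 on all 9 arrays. Of the 162 clusters, 109 held no other probe set and could not show a signal besides that of the members. In 20 of the rest, another probe set was at 4 or more on both 500 DD arrays. For these 20 the signal of the cluster as a whole was not at background.

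The design of the probe sets differed from that of the whole array. Names ending in _x_at, which mark probes shared with other sequences, made up 20.0% of the members, 23.1% of the 6700 other early probe sets and 11.1% of all, and those ending in _a_at 7.57%, 16.5% and 5.43%. Such probe sets may sum several transcripts or homoeologs, the copies of a gene in the 3 genomes of bread wheat. Names starting in TaAffx made up 19.5% of the members, 8.24% of the other early probe sets and 48.5% of all.

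The limits of the rule passed through a continuous range of values. The 3 members just inside the upper limit had 8.00 to 8.02 on the 100 DD array and the 3 probe sets just outside it 7.98 to 8.00. Within 0.1 of the limit, 10 members lay above it and 10 probe sets with a low level at 500 DD lay under it. At the lower limit, the nearest members had 3.988 to 3.996 on their higher 500 DD array, and the nearest probe sets outside 4.01 to 4.02.

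Of the annotated probe sets of at least 8 on the 100 DD array, 11 missed the rule but stayed under 5 on both 500 DD arrays, a bound chosen after the values were seen. They include 3 histones, the proteins that package DNA and are made in dividing cells. Histone H2A-9 (LOC732714, Ta.27657.12.S1_at) had 9.85 at 100 DD, 8.29 in replicate 2 and 8.32 in replicate 1 at 300 DD, and 3.73 and 4.05 at 500 DD. Histone wcH2B-8 (LOC543184, Ta.7378.18.S1_at) had 10.19 at 100 DD, 8.39 in replicate 2 and 8.56 in replicate 1 at 300 DD, and 3.38 and 4.79 at 500 DD. Both were still at 8 or more at 300 DD. Histone H2A-2 (LOC732712, Ta.29542.1.S1_x_at) differed from them, with 8.64 at 100 DD, 6.22 in replicate 2 and 7.91 in replicate 1 at 200 DD, 4.45 and 5.35 at 300 DD, and 3.76 and 4.35 at 500 DD. A beta-amylase (LOC543318, BMY1, Ta.3.1.S1_at), an enzyme that releases maltose from starch, had 13.73 at 100 DD, 10.53 in replicate 2 and 11.77 in replicate 1 at 200 DD, 6.47 and 8.52 at 300 DD, and 3.93 and 4.44 at 500 DD. XTH (Ta.30703.1.S1_at), which cuts and rejoins xyloglucan in growing cell walls, had 8.33 at 100 DD, 6.90 in replicate 2 and 6.65 in replicate 1 at 200 DD, 5.06 and 5.79 at 300 DD, and 2.98 and 4.90 at 500 DD.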

How the data were processed

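The authors hybridized grain RNA to Affymetrix wheat arrays, normalized the scans with GCRMA and deposited the log2 values of 10 arrays as 1 table. Its version was not stated there. All 10 columns were read and 0 columns of per-sample values were left out. The array labelled 100 DD replicate 2 entered no result on the members. The members, gene lists and tests were chosen with earlier results of these data known. The gene table of the array names 1273 probe sets, 1272 of them matched in the RefSeq gene table. It holds symbols without descriptions, so the 14 gene lists matched 15 probe sets and 0 members. Members are described one by one if annotated or if among the lowest 2 at 200 DD (1 of them annotated) or the highest 2 at 300 DD. The 2 members called with stage means were added after their values were seen. No sequences or genome positions were used.

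Fits used limma 3.58.1 in R 4.3.3 on the 6 arrays of 200 to 300 DD, with stage means, probe sets with a mean of at least 4 and Benjamini-Hochberg adjusted p under 0.05. Other values were computed with pandas 2.3.3. Replicate numbers were taken as harvests from the labelled degree days, and the study's methods number no replicates. Between stages, arrays of one number departed from the stage means together (r = 0.434 to 0.720), so the number was used as a block. Alternatives were another filter and none, quantile normalization, a trend in the prior, Bonferroni, a 2-group test modelled on that of the methods, each array left out, stricter limits of 9 and 3 for members (45 members), and other midpoints. The number of arrays, 2 per stage, limits the precision. The p-values set a difference against the spread between these samples. Limma draws the variance of each probe set towards that of all probe sets tested, and the common-variance test uses 1 variance for all. Unlike the methods, it left out no probe set of extreme variance. Because stages differ in labelled degree days between harvests, that spread holds a difference in time.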

Additional observations from a re-analysis of the deposited data

Results flagged for a closer look

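On the array labelled 100 DD replicate 2, which entered no result on the members, 11 of the 185 members had a log2 value of 4 or more. These values were 4.03 to 4.77, the highest being that of Prx1 (Ta.6572.1.S1_a_at), and the other 174 members were under 4. The 500 DD arrays held 0 members at 4 or more by the rule, so the comparison with them is set in advance.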

How the results depend on the processing

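Between 300 and 200 DD, the count of members called lower was 2 with stage means, beside 5 of the 22111 probe sets tested. With a filter of at least 4 on 2 arrays it was 6, beside 17 of 23277, and after quantile normalization 8, beside 17 of 22108. With a trend in the prior it was 5, beside 11 of 22111, and under the stricter limits 1 of 45, beside 5 of 22111. It was 0 without a filter and with Bonferroni, beside 0 of all probe sets lower. It was 78 with the replicate block and 0 to 65 with the block and without each array, added after seeing the data. With a variance for each probe set the 2-group test called 0 under either adjustment. With a common variance it called 65 lower (Bonferroni), beside 162 of all 22111 probe sets, and 95 lower and 1 higher (Benjamini-Hochberg), beside 410 lower and 492 higher. For 250 minus 200 DD the common variance gave 5 and 21, beside 14 and 51 of all probe sets lower. For 300 minus 250 DD it gave 12 and 34, beside 28 and 87, in the same order of adjustments. The other alternatives gave 0, the replicate block included. Between harvests the count was 0, beside 0 of all probe sets lower. It was 1 with labelled degree days as a slope, beside 9 of all probe sets lower and 17 higher. The fits without an array leave a stage with a single array, so their counts between harvests are not given. Those without either 200 DD array differed from the main count, so that count was not stable. For the slope itself the count was 65, beside 535 of the 22111 probe sets tested. It was 7 without a filter, beside 39 of 61179, and 2 with Bonferroni, beside 2 of 22111. Without each array it was 1 to 63, beside 1 to 340 of all probe sets.

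The midpoint stage moved most when the limit was set 1 log2 unit under the 100 DD value. Then 145 members in replicate 2 and 107 in replicate 1 were under it at 200 DD, 10 and 27 reached it at 300 DD, and 5 and 7 after 300 DD. Under the stricter limits, which leave 45 members, the counts at 200, 250, 300 and after 300 DD were 21, 5, 11 and 8 in replicate 2, and 12, 8, 9 and 16 in replicate 1. For LOC543355 the harvest difference changed sign, with 0.25 as the main value, -0.0009 to 0.43 without each array for Ta.581.1.S1_at (-0.0009 without either 200 DD array), and with -0.10 as the main value, -0.20 to 0.11 without each array (0.11 without either 300 DD array) and 0.24 with the slope for Ta.581.2.S1_a_at. The causes were not tested.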
